A study of Mus musculus with 40 samples.

Results

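Zinc finger genes were described across 13 groups of mouse cells and tissues. A gene was taken where its current symbol begins with Zfp or Klf and a digit, or with Zbtb, Zkscan, Zscan or Znf, and where its spot carries exactly 1 gene symbol; Zfp36 and Klf2 were left out. This gave 81 genes on 86 spots, of 5760 spots in all and 3284 genes named by a spot with 1 symbol. Each gene was represented by its brightest spot on average, and all 81 were tested without a filter on low values. Of the 81, 79 are annotated as protein coding and 2, Zfp862-ps and Znf41-ps, as transcribed pseudogenes.

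Most of these proteins carry tandem C2H2 zinc fingers, small loops held by a zinc ion, of which several in a row read a DNA sequence. Many mammalian Zfp genes add a KRAB domain, which recruits the corepressor Trim28 and silences retroviral elements and other targets; Zbtb proteins add a BTB domain for pairing and corepressor binding, Zscan and Zkscan proteins a SCAN domain for pairing, and Klf proteins bind GC-rich promoter boxes. In fat, Zfp423 is known as a factor that commits cells to the preadipocyte fate. The symbol does not fix the function: Zfp36l1 binds AU-rich mRNA through a different finger type, and Zfp385a and Zfp346 bind RNA.

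RNA of each sample was hybridised to a nylon filter array with radioactive label. The groups were peritoneal macrophages (adherent peritoneal cells after 24 h of plating, 3 samples), stroma-vascular cells (adherent cells of inguinal white fat 24 h after plating, 3), adipocytes isolated by collagenase from inguinal white fat (3), 3T3-F442A adipocytes after 7 days with Rosiglitazone (3), liver (2), tibialis muscle (2), C2C12 myotubes after 7 days in horse serum (2), proliferating C2C12 myoblasts (3), the macrophage lines Raw 264 (3) and J774 (2), ZIN40 embryonic stem (ES) cells with LIF (3), C3H-10T1/2 mesenchymal cells (3), and proliferating preadipocytes of the lines 3T3-L1 (2 samples, averaged), 3T3-F442A, Ob1774 and Hgfu (1 each). Each cultured group is 1 line, apart from the preadipocyte lines, and no genotype, strain, sex or age of an animal is given in the labels. C3H-10T1/2 and the preadipocyte lines are called mesenchymal lines where they serve together as the baseline. Samples of ES cells without LIF hold values of another kind and were compared with no group. In whole tissue and mixed cells, fewer cells of a type and less RNA per cell cannot be told apart.

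Median raw intensity ran between 18870.5 and 132227.5 in the 37 arrays of the 13 groups, and 17 of them were most alike to an array of their own group. None of these 17 was from liver, Raw 264, C3H-10T1/2, proliferating C2C12 or ES cells with LIF. The 2 liver arrays correlated at r = 0.817 with each other, and at up to 0.830 and 0.886 with an array of another group. Of 6 muscle markers, 5 had their highest group mean in tibialis muscle, and all 5 liver markers had theirs in liver. Among the liver markers, Ttr averaged 1.32 in liver against 1.30 in C2C12 myotubes and was not called in any comparison. Of 5 macrophage markers, 3 were highest in peritoneal macrophages, and of 5 adipocyte markers, 2 each were highest in inguinal adipocytes and in 3T3-F442A adipocytes. Fcer1g was highest in Raw 264 cells, Vav1 in ES cells with LIF and the adipocyte marker Cidec in tibialis muscle. No ES cell marker was measured, so that label could not be checked. The summed liver markers were 15.2 in one liver array and 55.9 in the other, in multiples of the median spot.

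Levels are given as relative intensity, the normalised intensity divided by that of the median spot, which is the same on every array. A log2 fold change is taken after adding an offset of 36370 to the intensity, which compresses the changes of dim spots. A gene was called at an adjusted p under 0.05, from limma with Benjamini-Hochberg adjustment over all 5760 spots. The 81 spots were mostly dim: 29 were brighter than the median spot, and 4 averaged over 2 times its intensity. The median member stood at the 36.8th percentile of all spots, against the 47.4th for all named genes. A spot's brightness also depends on its DNA and is no measure of one gene's transcripts against another's.

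Across the 13 groups, 7 of the 81 genes differed, and these were Zfp592, Zfp809, Zfp36l1, Zfp423, Zfp653, Zfp575 and Zfp943 (moderated F test over 12 contrasts in limma). The same test called 10.9% of all spots, so the share of called zinc finger genes was close to that background. At an unadjusted p under 0.05 the count was 19 of 81, against 1544 of 5760 spots. The adjusted p was 0.000399 for Zfp592, 0.00145 for Zfp809, 0.00206 for Zfp36l1 and 0.00237 for Zfp423. It was 0.029 for Zfp653, 0.0425 for Zfp575 and 0.0477 for Zfp943. The next 5 genes were not called: Zfp180 at an adjusted p of 0.0517, Zbtb40 at 0.0554, Zfp207 at 0.0656, Zfp800 at 0.0842 and Zfp91 at 0.117. All 7 called genes carry the Zfp prefix, among 68 with Zfp or Znf; none of the 7 Zbtb, 3 Klf and 3 Zkscan or Zscan genes was called, and 2 Zbtb genes had an unadjusted p under 0.05.

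The groups differed little for most members. The distance between the highest and the lowest group mean had a median of 0.39 log2 units over the 81 genes, against 0.41 over all spots, and the median SD within groups was 0.15, against 0.17. Among the 74 genes not called the distance ran between 0.16 and 0.94, and the largest was that of Zfp764. Liver gave the highest group mean for 12 members, 14.8% of them, and C2C12 myotubes for 10. Over all spots liver held the highest mean for 15% and C2C12 myotubes for 9.84%. In single comparisons the median log2 difference of the 81 genes stayed close to that of all spots, for example -0.03 against -0.01 in 3T3-F442A adipocytes minus preadipocyte lines and 0.04 against 0.01 in C2C12 myotubes minus proliferating cells. J774 cells gave the lowest mean for 11 members, 13.6%, against 10.6% of all spots.

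**Figure D1:**
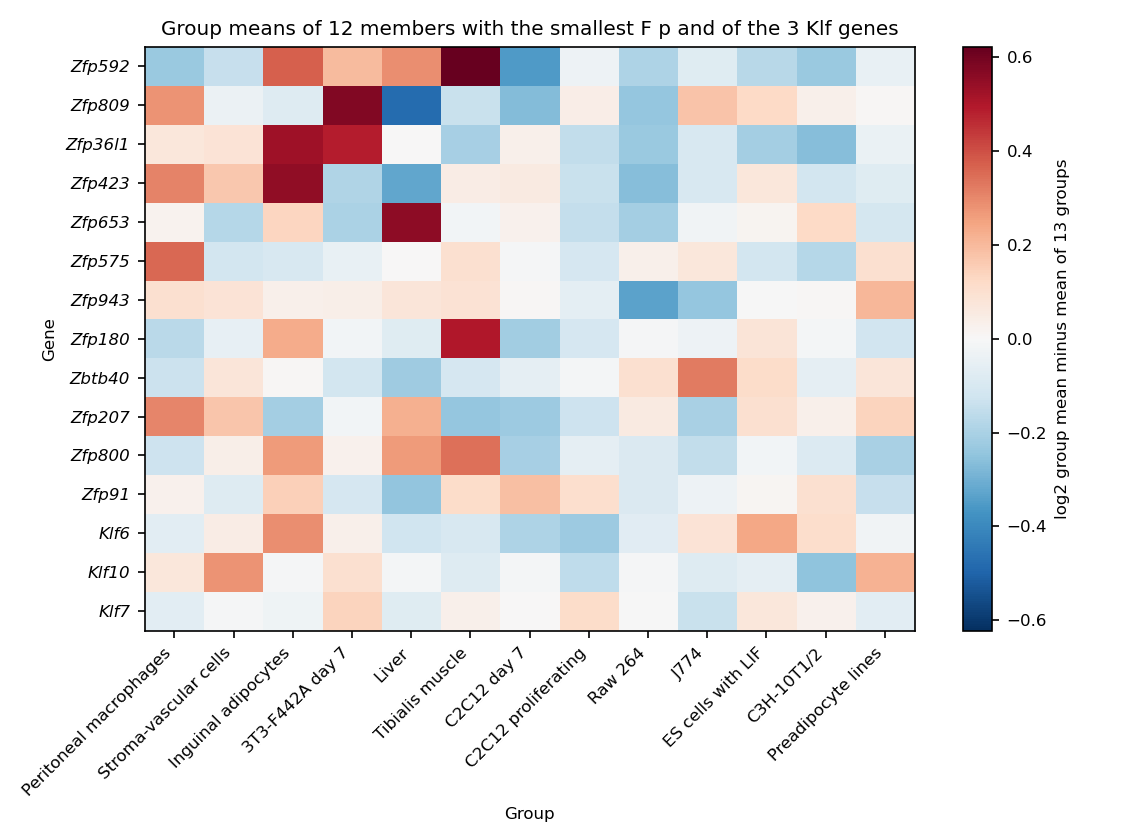
Group means of the 12 zinc finger genes with the smallest p of the F test (top rows, smallest p first) and of the 3 Klf genes (bottom rows), as log2 difference from the mean of 13 groups (colour scale; columns are groups). Zfp592 stands out in tibialis muscle, Zfp423 in inguinal adipocytes and Zfp809 in 3T3-F442A adipocytes. Zfp36l1 does so in both adipocyte groups, Zfp653 in liver and Zfp575 in peritoneal macrophages. Klf7 shows the palest colours. Klf10 and Klf6 spanned 0.53 and 0.51 log2 units between their highest and lowest group means, against 0.53 for Zfp575.

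Tibialis muscle was set against C2C12 myotubes to compare muscle tissue with muscle cells formed in culture. Limma called 2 zinc finger genes, Zfp592 and Zfp180, both higher in the tissue. Of all spots, 0.92% were called in this comparison, 0.712% as higher. The arrays of the groups did not overlap for 31 members and for 40.5% of all spots. Zfp592 is known in human cells as a partner of the chromatin reader ZMYND8. Its relative intensity was 2.51 and 2.58 in tibialis muscle, against 0.671 and 1.3 in C2C12 myotubes. Both muscle arrays lay above every other array of the 13 groups. The difference was 0.98 ± 0.17 on the log2 scale (SE), adjusted p = 0.00109. Without replicate 1 of the myotubes it was 0.70 ± 0.19 with an adjusted p of 0.182, and the call was lost.

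Zfp180 had 1.38 and 1.85 in tibialis muscle, against 0.665 and 0.751 in C2C12 myotubes. The groups did not overlap, but 1 array of inguinal adipocytes, at 1.46, and 1 of ES cells with LIF, at 1.39, reached the lower muscle value. The log2 difference was 0.71 ± 0.16, adjusted p = 0.0185 in limma. The adjusted p was 0.263 without replicate 1 of the myotubes and 0.396 without replicate 2 of tibialis muscle. Zfp868 and Zfp800 had log2 differences of 0.76 and 0.55, with adjusted p of 0.179 and 0.168. Of 6 muscle markers, Atp2a1 and Pygm were higher in tibialis muscle by 2.60 and 1.85 log2 units and Tnnc1, the slow and cardiac troponin C, was lower by 1.75 (log2 difference -1.75). Their part in the zinc finger differences was not tested.

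The promoters of both genes are shown because they are the 2 members called in muscle. They are the 250 bases before the annotated start in RefSeq's GRCm38.p6, Zfp592 at chr7:80993434-80993683 and Zfp180 at chr7:24081647-24081896, both on the plus strand and printed 5′ to 3′. Capitals mark the E-box, CANNTG, which myogenic bHLH factors bind, and the GC box, GGGCGG, on either strand.
Zfp592: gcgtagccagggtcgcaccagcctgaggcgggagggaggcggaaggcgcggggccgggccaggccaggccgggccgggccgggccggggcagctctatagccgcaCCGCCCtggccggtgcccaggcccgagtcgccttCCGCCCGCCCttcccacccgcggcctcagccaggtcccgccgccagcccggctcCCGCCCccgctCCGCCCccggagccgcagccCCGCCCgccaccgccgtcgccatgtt
Zfp180: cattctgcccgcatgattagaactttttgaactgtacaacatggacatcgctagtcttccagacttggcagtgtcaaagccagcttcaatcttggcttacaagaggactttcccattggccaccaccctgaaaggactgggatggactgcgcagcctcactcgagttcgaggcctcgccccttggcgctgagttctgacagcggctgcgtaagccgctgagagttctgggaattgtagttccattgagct
The Zfp592 sequence held 6 GC boxes and no E-box, and its G and C content was 81.6%. The Zfp180 sequence held neither motif, and its G and C content was 52.8%.

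Zfp592 was also high in fat and liver. Its mean relative intensity was 2.03 ± 0.11 in inguinal adipocytes (SD, n = 3), 1.72 ± 0.068 in 3T3-F442A adipocytes (n = 3) and 1.88 ± 0.20 in liver (n = 2). In tibialis muscle the mean was 2.55 ± 0.050 (n = 2). The other 9 groups averaged between 0.985 in C2C12 myotubes and 1.38 in proliferating C2C12 cells. Neighbours in the lower part of this order overlapped array by array.

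Stroma-vascular cells are the non-fat cells of the adipose tissue that also yields adipocytes. Against inguinal adipocytes no member was called without a replicate block, where 0.625% of all spots were. At an unadjusted p under 0.05 limma gave 8 of 81 members, 9.88%, close to the 9.01% of all spots. The arrays did not overlap for 12 members and for 20% of all spots. Zfp592 had 1.04, 1.23 and 1.39 in stroma-vascular cells, against 2.15, 1.94 and 2.01 in inguinal adipocytes. All 3 stroma-vascular arrays were lower, by -0.52 ± 0.14 on the log2 scale, with an adjusted p of 0.0759. Equal replicate numbers deviated together in these 2 groups. With the number as a block, 231 of 5760 spots were called, against 36 without it, and 2 of the 81 members. These were Zfp592, at the same difference with an SE of 0.097 and an adjusted p of 0.0196, and Zfp36l1, at -0.44 ± 0.10 with an adjusted p of 0.0448. Zfp36l1 had 1.34, 1.58 and 1.94 in stroma-vascular cells, against 1.7, 2.85 and 2.88 in inguinal adipocytes, and the groups overlapped by 1 array. Of 5 adipocyte markers, Retn and Pnpla2 were lower in stroma-vascular cells by -0.89 and -0.63 log2 units, called by limma. The part of the cell mixture in these differences was not tested.

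Inguinal adipocytes were set against 3T3-F442A adipocytes to compare fat cells from tissue with fat cells formed in culture. The cultured cells are 1 line and Rosiglitazone is named only for them, so culture, line and drug cannot be told apart here. Here limma called 2 of 81 members in opposite directions, Zfp423 and Zfp809, while 2.47% of all spots were called. For 20 members and for 28.2% of all spots, the arrays of one group all lay above or below those of the other. Zfp423 had 1.74, 1.77 and 2.68 in inguinal adipocytes, against 1.02, 0.814 and 0.984 in 3T3-F442A adipocytes. All inguinal arrays were higher, by 0.74 ± 0.14 log2 units, adjusted p = 0.00337. The call held without any single array of the 2 groups, with adjusted p between 0.00684 and 0.0451. Zfp423 had the highest group mean in inguinal adipocytes at 2.07 ± 0.54 (SD, n = 3), followed by peritoneal macrophages at 1.63 ± 0.40 (n = 3) and stroma-vascular cells at 1.41 ± 0.27 (n = 3). The lowest mean was 0.794 ± 0.13 in liver (n = 2). The single stroma-vascular values were 1.72, 1.25 and 1.25, so their highest array came close to the lowest adipocyte array. Stroma-vascular cells minus adipocytes gave -0.38 ± 0.14, which was not called (adjusted p = 0.361).

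Zfp809, which silences retroviruses in mouse embryonic cells through Trim28, had 1.79, 1.58 and 1.92 in inguinal adipocytes, against 2.62, 4.19 and 2.87 in 3T3-F442A adipocytes. All inguinal arrays were lower, with a log2 difference of -0.66 ± 0.15 and an adjusted p of 0.0116. Without replicate 2 of 3T3-F442A, the array at 4.19, the difference was -0.49 ± 0.15 and its adjusted p 0.151. The call was also lost without replicate 1 or without replicate 2 of the inguinal adipocytes (adjusted p of 0.0541 and 0.0614). Several cell type markers moved in the same comparison. Timp2, a matrix gene of fibroblasts, differed by -1.87, Lpl by -0.69 and Plin5 by -0.98 log2 units, all lower in inguinal adipocytes. Retn was higher by 0.94 and Cd79b, of B lymphocytes, by 0.79. Cd79b averaged 3.29 in inguinal adipocytes, but also 2.94 in peritoneal macrophages, 2.59 in ES cells with LIF and 2.5 in C3H-10T1/2 cells. It was the only 1 measured of 5 lymphocyte markers, and Timp2 the only 1 of 7 fibroblast and matrix markers. Summed adipocyte markers lay between 9.64 and 14.1 in inguinal adipocytes and between 14.7 and 19.7 in 3T3-F442A adipocytes. Their part in the zinc finger differences was not tested.

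The promoters of these 2 genes are shown because the genes moved in opposite directions between the 2 kinds of adipocyte. They are Zfp423 at chr8:87959596-87959845 on the minus strand and Zfp809 at chr9:22225453-22225702 on the plus strand, from the same RefSeq table, with capitals as above.
Zfp423: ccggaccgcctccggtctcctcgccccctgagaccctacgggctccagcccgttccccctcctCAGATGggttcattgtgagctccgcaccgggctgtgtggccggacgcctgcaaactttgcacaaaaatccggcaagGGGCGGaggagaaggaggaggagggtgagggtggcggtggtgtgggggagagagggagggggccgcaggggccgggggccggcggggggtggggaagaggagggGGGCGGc
Zfp809: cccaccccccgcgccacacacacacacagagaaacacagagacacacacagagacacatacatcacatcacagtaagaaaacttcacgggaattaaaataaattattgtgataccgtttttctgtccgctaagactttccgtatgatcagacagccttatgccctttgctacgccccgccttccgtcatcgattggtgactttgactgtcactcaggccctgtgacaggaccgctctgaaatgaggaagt
The Zfp423 sequence held 1 E-box and 2 GC boxes at a G and C content of 71.6%. The Zfp809 sequence held neither motif at a G and C content of 48.4%.

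**Figure D2:**
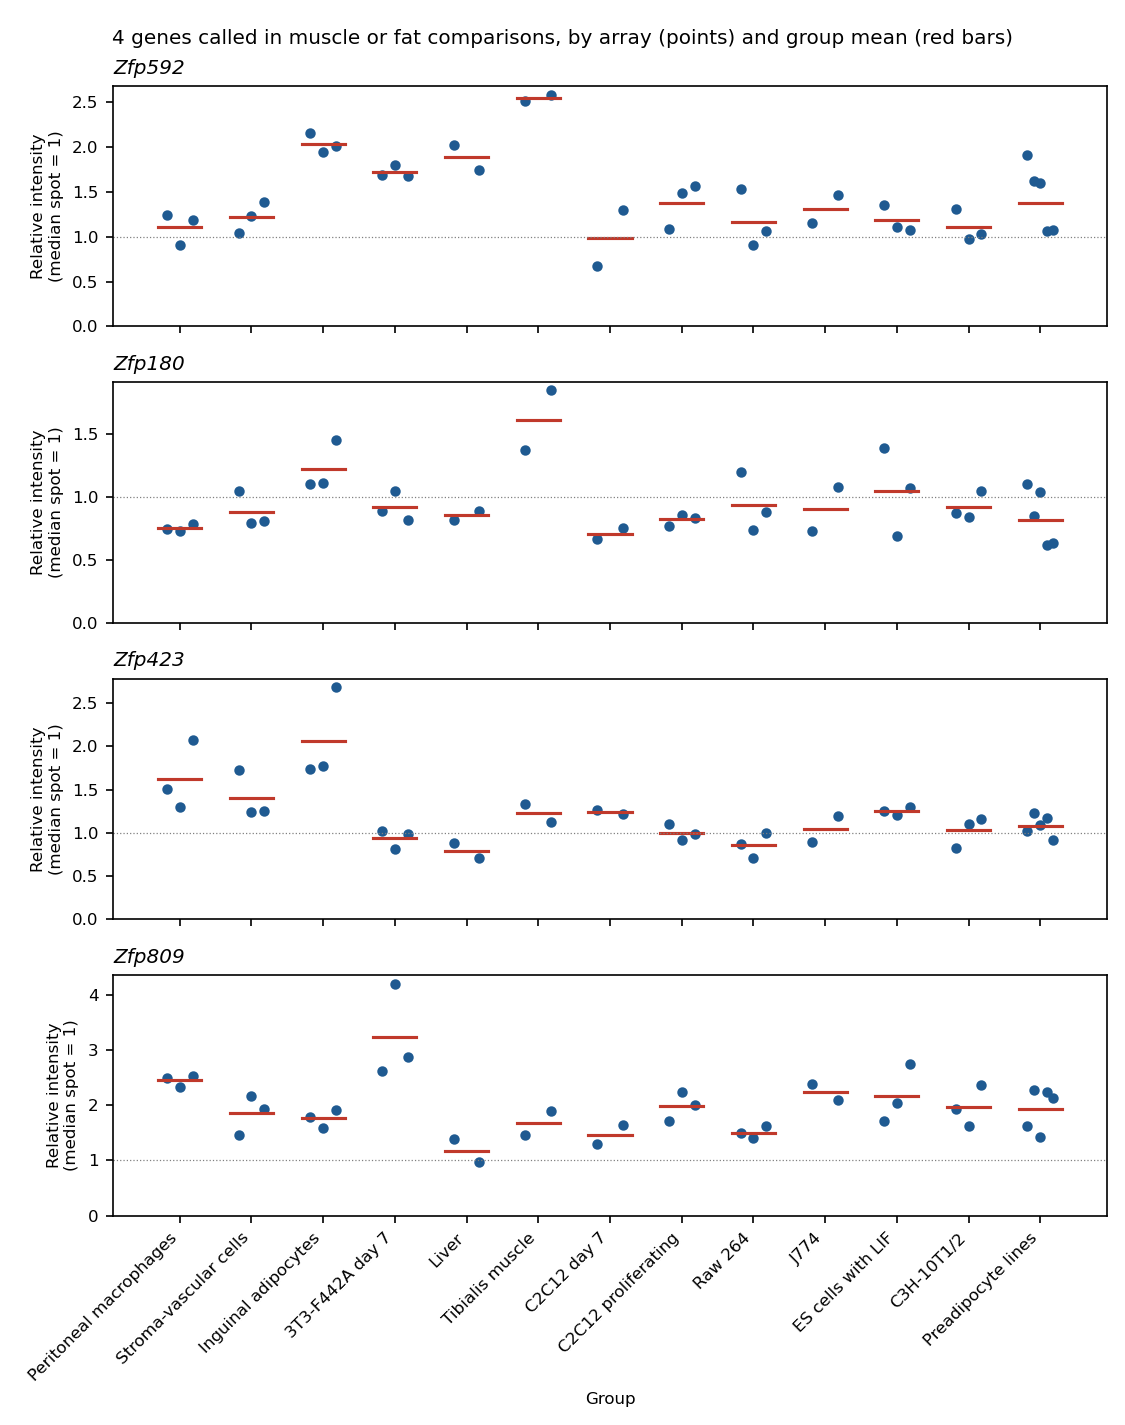
Relative intensity (median spot = 1, linear axis from 0) of Zfp592, Zfp180, Zfp423 and Zfp809 on each array of 13 groups; points are arrays and red bars group means. Zfp592 was 2.51 and 2.58 in tibialis muscle, Zfp423 reached 2.68 in inguinal adipocytes, and Zfp809 was 2.62, 4.19 and 2.87 in 3T3-F442A adipocytes.

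The change with fat cell formation in culture was tested as 3T3-F442A adipocytes on day 7 against 4 preadipocyte lines. Of these lines, 3T3-L1, Ob1774 and Hgfu are not 3T3-F442A, and Rosiglitazone is named only for the day 7 cells. Fat cell formation, line and drug therefore cannot be told apart here. No member was called, as against 0.156% of all spots, and 9 of 81 members, 11.1%, had an unadjusted p under 0.05 in limma, against 9.95% of all spots. The arrays did not overlap for 9 members and for 8.42% of all spots. Zfp809 came nearest. Against its 3T3-F442A values above, it had 1.62 and 2.27 in 3T3-L1, 1.43 in 3T3-F442A, 2.24 in Ob1774 and 2.13 in Hgfu preadipocytes. Every day 7 array was above every preadipocyte array, and the log2 difference was 0.57 ± 0.14 with an adjusted p of 0.0825. It was called without replicate 1 of the day 7 cells, where its adjusted p was 0.0279, and without 1 of the 3T3-L1 arrays, where it was 0.0293.

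Zfp36l1, a decay factor for AU-rich mRNA, had 2.21, 2.44 and 2.38 in 3T3-F442A adipocytes. Against these stood 1.55 and 1.28 in 3T3-L1, 1.53 in 3T3-F442A, 1.57 in Ob1774 and 1.16 in Hgfu preadipocytes. The groups did not overlap, and the log2 difference was 0.53 ± 0.14 with an adjusted p of 0.121. Zfp36l1 averaged 2.48 ± 0.67 in inguinal adipocytes (SD, n = 3) and 2.34 ± 0.12 in 3T3-F442A adipocytes (n = 3), and at most 1.62 in the other 11 groups. Zfp385a had 0.519, 0.683 and 0.802 in 3T3-F442A adipocytes, against 0.835 and 0.829 in 3T3-L1, 1.36 in 3T3-F442A, 1.18 in Ob1774 and 1.18 in Hgfu preadipocytes. Its log2 difference was -0.43 ± 0.11 and its adjusted p 0.0915. Of 5 adipocyte markers, Lpl and Plin5 were called in the same comparison, at log2 differences of 1.40 and 1.03.

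C2C12 myotubes on day 7 were set against proliferating C2C12 cells for the change with muscle cell formation. No member was called, where 0.226% of all spots were, 0.0521% as higher, and 8 of 81, 9.88%, had an unadjusted p under 0.05 in limma, against 9.97% of all spots. For 21 members and for 21.6% of all spots, the arrays of one group all lay above or below those of the other. The smallest p belonged to Zfp346, a binder of double-stranded RNA. It had 1.99 and 2.62 in myotubes, against 1.02, 0.856 and 1.15 in proliferating cells. Both myotube arrays were higher, but single arrays of other groups reached 2.83 in tibialis muscle and 3.72 in Raw 264 cells. Its log2 difference was 0.81 ± 0.27 and its adjusted p 0.254. Of 6 muscle markers, the contractile genes Myl1 and Tnnc1 were called, at 2.10 and 1.92. The muscle marker Eno3 averaged 3.10 in myotubes, against 3.52 in proliferating cells, and was not called.

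The fat and muscle cell changes in culture were then compared with each other in limma, as the first minus the second. The fat cell change carries the limit of line and drug given above. No member was called, 0.26% of all spots were, 0.0694% as lower, and 8 members, 9.88%, had an unadjusted p under 0.05, against 10.2% of all spots. Zfp809 differed most by p, with a difference of the 2 changes of 0.88 ± 0.21 log2 units and an adjusted p of 0.0673. It was called without replicate 2 of the myotubes, replicate 1 of the proliferating C2C12 cells or replicate 1 of the 3T3-F442A adipocytes, at adjusted p between 0.0259 and 0.0451.

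Peritoneal macrophages were set against stroma-vascular cells, both being primary cells that adhered after 24 h of plating. Limma called 1 member, Zfp575, higher in macrophages, and 0.451% of all spots. The arrays did not overlap for 11 members and for 15.1% of all spots. Zfp575 had 1.62, 1.07 and 1.24 in peritoneal macrophages, against 0.631, 0.875 and 0.737 in stroma-vascular cells. The groups did not overlap, and the log2 difference was 0.47 ± 0.11 with an adjusted p of 0.0407. The call was lost without replicate 1 or 3 of the macrophages and without replicate 1 or 3 of the stroma-vascular cells, where adjusted p ran between 0.119 and 0.355. At an unadjusted p under 0.05 there were 5 members, 6.17%, against 5.38% of all spots. Of 5 macrophage markers, Cybb, Mpeg1, Itgb2 and Fcer1g were higher in the macrophages by 0.84 to 1.91 log2 units, and Vav1, at 0.891 against 0.912, was not called.

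The cultured macrophage lines Raw 264 and J774 were set against the mesenchymal lines. Limma called 1 member, Zfp943, lower in the macrophage lines, and 1.08% of all spots, 0.243% as lower and 0.833% as higher. For 2 members and for 0.66% of all spots, the arrays of one group all lay above or below those of the other. Zfp943 had 0.818, 0.531 and 0.649 in Raw 264 and 0.611 and 0.906 in J774 cells. It had 0.944, 0.936 and 1.2 in C3H-10T1/2 cells, and the 5 preadipocyte arrays lay between 0.943 and 1.46. All 5 macrophage line arrays were lower, by -0.39 ± 0.08 on the log2 scale, adjusted p = 0.00872. Without replicate 1 of J774 the difference was -0.32 ± 0.09 and its adjusted p 0.225. Only 3 members had an unadjusted p under 0.05, 3.7% of them, against 13.4% of all spots.

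Peritoneal macrophages were also set against the macrophage lines. Here 3 members were called by limma, Zfp423 and Zfp943 higher and Zbtb40 lower in the primary cells, while 2.9% of all spots were called. The arrays did not overlap for 11 members and for 11% of all spots. Zfp943 had 1.16, 1.16 and 1.07 in peritoneal macrophages, above all 5 arrays of the lines given before; this comparison shares the lines with the previous one. Its log2 difference was 0.38 ± 0.10 with an adjusted p of 0.0286. Zfp423 had 1.5, 1.3 and 2.08 in peritoneal macrophages, against 0.874, 0.709 and 0.995 in Raw 264 and 0.899 and 1.19 in J774 cells. The groups did not overlap, at a difference of 0.49 ± 0.13 and an adjusted p of 0.0301.

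Zbtb40, a BTB zinc finger protein, had 0.832, 0.829 and 1.1 in peritoneal macrophages, against 1.37, 1.14 and 1.11 in Raw 264 and 1.48 and 1.55 in J774 cells. The highest peritoneal and the lowest Raw 264 array were almost level, and the difference was -0.35 ± 0.09 with an adjusted p of 0.0275. Each of these 3 calls was lost on leaving out one of several arrays: 5 of 8 arrays for Zbtb40, 5 for Zfp943 and 4 for Zfp423. Replicate 1 of the peritoneal macrophages and replicate 1 of J774 were among them for all 3 genes. Of 5 macrophage markers, Cybb, Mpeg1 and Itgb2 were also higher in the peritoneal cells, by 0.71 to 1.47 log2 units. Fcer1g and Vav1 were not called; Fcer1g averaged 3.25 in peritoneal macrophages, against 5.22 in Raw 264 and 2.41 in J774 cells, and Vav1 averaged 0.891, against 0.889 and 0.863. The part of these markers in the zinc finger differences was not tested.

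**Figure D3:**
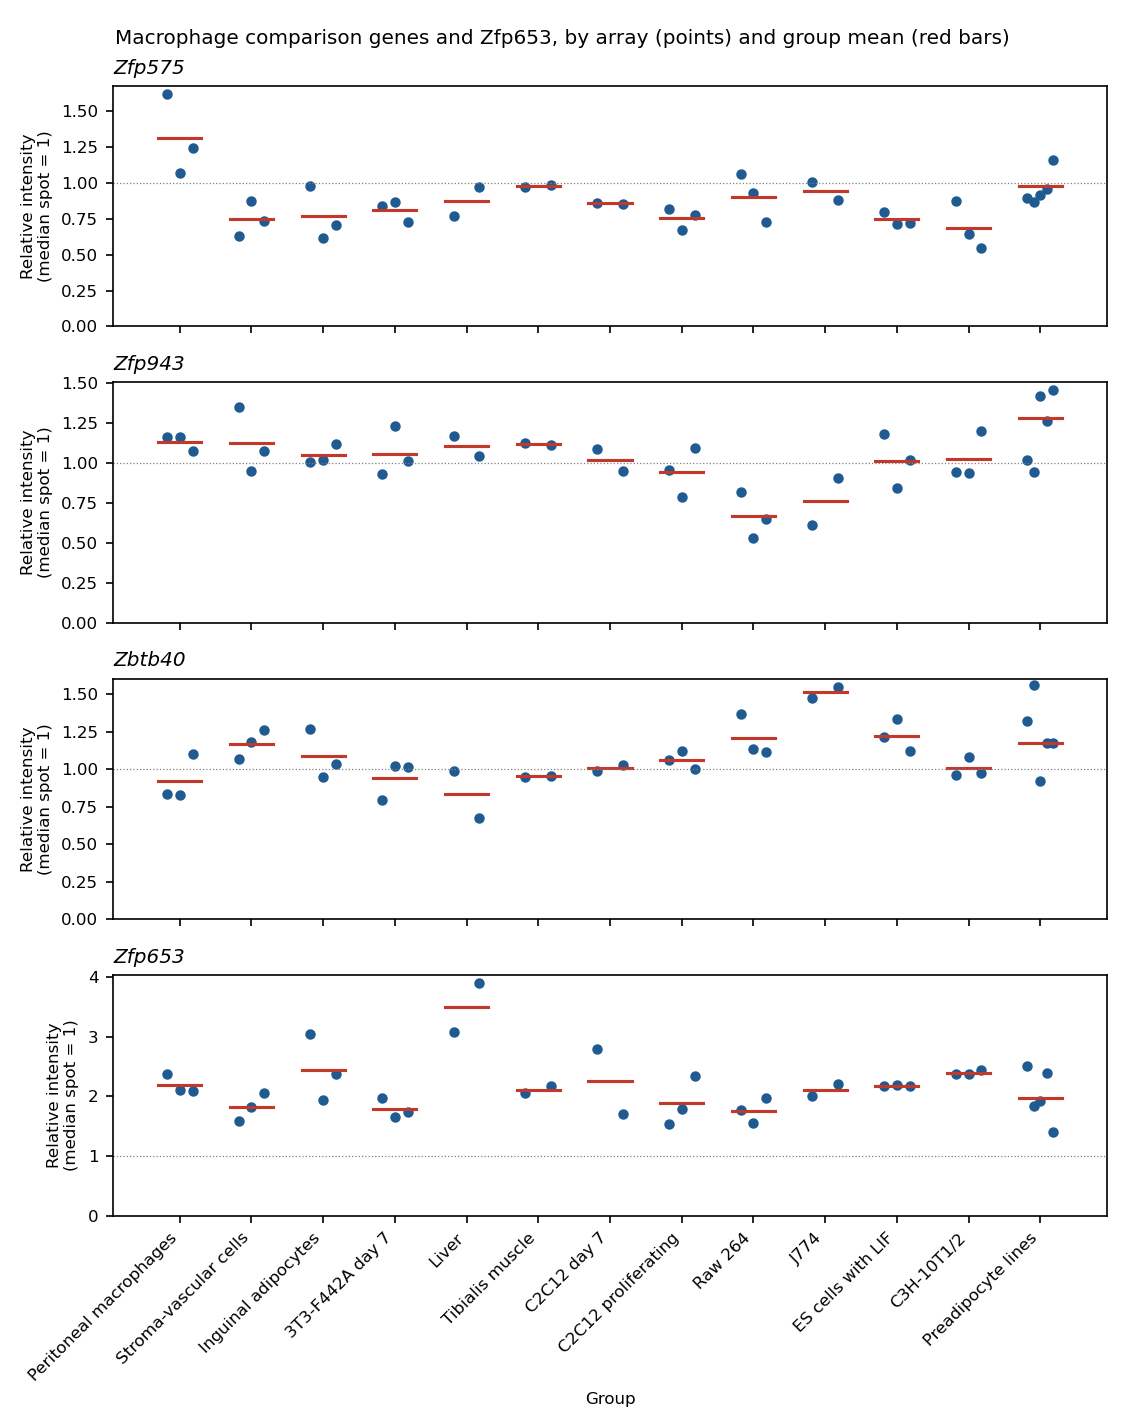
Relative intensity (median spot = 1, linear axis from 0) of Zfp575, Zfp943, Zbtb40 and Zfp653 on each array of 13 groups; points are arrays and red bars group means. Zfp575 was 1.62, 1.07 and 1.24 in peritoneal macrophages, Zfp943 lay between 0.531 and 0.906 in Raw 264 and J774 cells, and Zfp653 was 3.08 and 3.9 in liver.

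Liver against tibialis muscle gave no called member, where 1.88% of all spots were called, and 12 of 81 members, 14.8%, had an unadjusted p under 0.05 in limma, against 15.1% of all spots. For 33 members and for 45.6% of all spots, the arrays of one group all lay above or below those of the other. Zfp180 had 0.816 and 0.893 in liver, against its 1.38 and 1.85 in tibialis muscle, and the difference was -0.57 ± 0.16 with an adjusted p of 0.059. Zfp653 had 3.08 and 3.9 in liver, against 2.05 and 2.16 in tibialis muscle. Both liver arrays lay above every other array of the 13 groups, of which the next was 1 of inguinal adipocytes at 3.04. The log2 difference was 0.57 ± 0.17 with an adjusted p of 0.0663. The call of Zfp653 across all groups was lost without replicate 2 of liver (adjusted p = 0.181). The globin Hbb-b1, a marker of red blood cells, was at 1.86 in one liver array and 10.1 in the other, so that its liver mean of 5.98, the highest of the groups, rests on 1 array; the lower array was below the stroma-vascular mean of 2.05. Its part was not tested.

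ES cells with LIF against the mesenchymal lines gave no called member, at 0.226% of all spots, and 2 members, 2.47%, had an unadjusted p under 0.05 in limma, against 4.81% of all spots. The arrays did not overlap for 1 member and for 1.46% of all spots. The smallest p belonged to Zfp945, with 1.71, 0.975 and 1.07 in ES cells. The C3H-10T1/2 arrays were at 0.934, 1.05 and 1.11, and the preadipocyte arrays at 0.55 and 0.732 in 3T3-L1, 0.676 in 3T3-F442A, 1.3 in Ob1774 and 0.647 in Hgfu. The groups overlapped, with a log2 difference of 0.26 ± 0.12 and an adjusted p of 0.999. Zfp57, which keeps genomic imprints in mouse ES cells, differed by 0.18 ± 0.11 (adjusted p = 0.999).

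**Figure D4:**
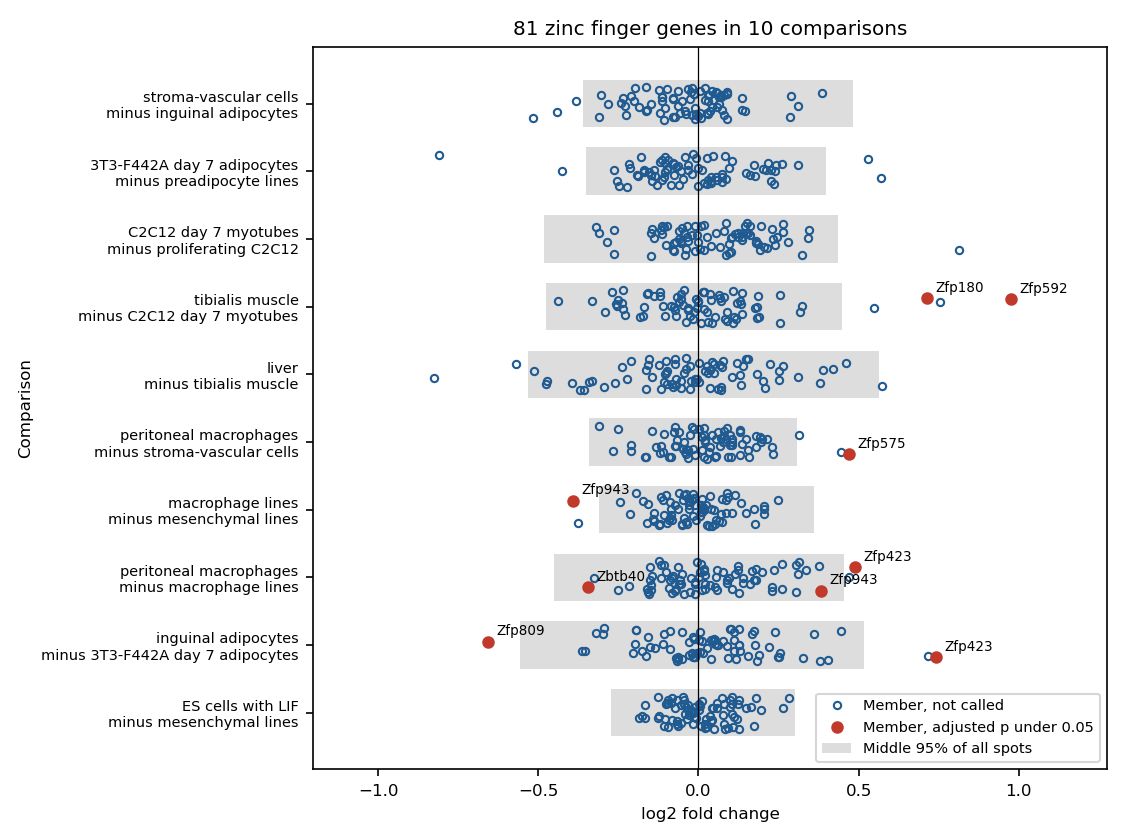
Log2 fold changes (horizontal axis) of the 81 zinc finger genes in 10 comparisons (rows; the group named first minus the second). Open circles are genes not called, filled circles those at an adjusted p under 0.05, and grey bars the middle 95% of all 5760 spots; most zinc finger genes lie inside the grey bars, and the called genes are those named in the text.

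Among the Klf genes, none was called across the 13 groups or in any comparison. Klf6, an immediate response factor, had a group mean distance of 0.51 log2 units and an adjusted p of 0.198. Its highest group was inguinal adipocytes, at 2.09, 1.4 and 1.76, and its lowest proliferating C2C12 cells, at 1.21, 1.07 and 0.766. Klf10, which TGF beta induces, had a distance of 0.53 and an adjusted p of 0.249. Klf10 was highest in stroma-vascular cells, at 1.37, 1.77 and 1.37, and lowest in C3H-10T1/2 cells, at 1.08, 0.811 and 0.621. Klf7 spanned 0.27 log2 units with an adjusted p of 0.793.

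Of the other genes with a small p across groups, Zfp207, a spindle and kinetochore protein, was highest in peritoneal macrophages at 2.06, 1.56 and 2.07 and lowest in tibialis muscle at 0.994 and 1.16. Zfp800 was highest in tibialis muscle, at 1.6 and 1.76, and lowest in C2C12 myotubes at 0.739 and 1.15. Zfp91, a ubiquitin ligase of the NF-kappaB pathway, was highest in C2C12 myotubes at 1.4 and 0.979 and lowest in liver at 0.784 and 0.614. None of these 3 passed the threshold.

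Spots for 4 genes allowed a check between spots of a gene. Over the 37 arrays the 2 spots correlated at r = 0.02 for Klf7, 0.28 for Zfp334 and 0.04 for Zfp799. For Zfp318 the brightest spot correlated at -0.02 and -0.20 with the other 2. No spot of these genes was called across groups. The 7 called genes have 1 spot each, and none could be checked this way.

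Lists of related genes were read beside the members. Of 36 corepressor and chromatin partners 11 were measured, and 2 of them were called across the 13 groups, where 10.9% of all spots were. These 2 were Rbbp4 (adjusted p = 0.00477) and Sin3a (adjusted p = 0.00418) in the F test. Sin3a, the scaffold of a histone deacetylase complex, was higher in peritoneal macrophages than in the macrophage lines by 0.79 ± 0.16 log2 units (adjusted p = 0.00352 in limma). Crebbp, an acetyltransferase, was higher in liver than in tibialis muscle by 0.55 ± 0.14 (adjusted p = 0.0258). No other of the 11 was called in any of the 11 comparisons, and Trim28 was not analysed here. Of 58 other C2H2 factors 15 were measured, and only Adnp, a chromatin regulator, was called. Adnp was called across the 13 groups (adjusted p = 0.00395 in the F test). It was higher in inguinal adipocytes than in 3T3-F442A adipocytes by 0.77 ± 0.15 (adjusted p = 0.00258 in limma), where 2.47% of all spots were called.

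For 66 of the 81 genes the RefSeq table held a promoter. In the 250 bases before the start the GC box stood in 53.0% of the members' promoters and in 32.9% of all 27025 promoters, counting either strand. The E-box stood in 56.1% of the members' and 66.0% of all, and the CCAAT box, CCAAT on either strand, in 42.4% and 34.5%. Median G and C content was 56.4% for members and 52.0% for all. In the genome, 11 pairs of members had at most 4 protein coding genes or transcribed pseudogenes between them. How often other genes form such pairs was not counted. Over the 13 group means these pairs of members correlated between -0.45 for Zfp799 with Zfp472 and 0.49 for Zfp524 with Zfp865, with a median of 0.0. These correlations are a description over points that share arrays.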

How the data were processed

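Nylon filter arrays of 40 mouse samples were analysed. Per the labels, RNA was extracted with Tripure and treated with DNase, cDNA carried 33P, and filters from Resgen were quantified with Imagene. Each deposited file lists, on a linear scale, the intensity of 5760 spots. Not given in the sources used here are the software version and whether the authors subtracted background or scaled the intensities. In the 37 arrays compared, no spot was below 7675. The 3 arrays of ES cells without LIF have a 99th percentile 60.0 to 391 times their median, against 3.87 to 17.5 times in the others. They entered the normalisation and the shared spread and no contrast.

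From the deposited intensities, arrays were quantile normalised and log2 was taken after adding 36370, the 10th percentile. Linear models with moderated variances came from limma 3.58.1, run in R 4.3.3, with 14 groups, 39 replicates after averaging 3T3-L1, and 25 residual degrees of freedom. All tests were two-sided and adjusted by Benjamini-Hochberg over all spots. The fit was tested on simulated data. The labels name separate lines for the preadipocytes and are silent on separate cultures or animals elsewhere; a p-value there covers the spread among the arrays at hand, possibly a technical one. The number of arrays limits the precision. Proliferating C2C12 samples were grouped by title, although their source name calls them preadipocytes.

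The members, lists, comparisons and tests were chosen with earlier results of these data known. Named genes were the called members of each comparison or else the one with the smallest p, the 12 with the smallest p of the F test, the Klf genes, genes with several spots, genes with a preadipocyte line apart, and called genes of the other lists; Zfp868, Zfp764, Zfp385a, Zfp57 and the neighbouring pairs were named after their values were seen. Current symbols came from GRCm38.p6 by gene identifier, which matched 3346 of 3420 spots with 1 symbol, and promoters from RefSeq.

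Replicate numbers were taken to pair groups where equal numbers deviated together at r over 0.1 in all of 3 pairs. That held for stroma-vascular cells with adipocytes (r = 0.26, 0.10 and 0.39), ES cells with LIF with C3H-10T1/2 (0.39, 0.63 and 0.61) and Raw 264 with C3H-10T1/2 (0.10, 0.16 and 0.24). Alternatives were median scaling, subtraction of each array's 5th percentile, 4 times the offset, only bright spots, no ES arrays without LIF, a local trend over 101 spots removed, the mean over a gene's spots, only the compared groups, a replicate block and each array left out. Figures used matplotlib 3.10.9 in Python 3.11.15.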

Additional observations from a re-analysis of the deposited data

Results flagged for a closer look

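Among the 4 preadipocyte lines, a single line stood apart from the other 3 for 4 genes, by a gap larger than Dixon's 95% critical value of 0.829 of the range. Zfp334 was at a relative intensity of 1.51 in Hgfu, and Znf41-ps was at 1.07 in the same line. Zfp9 was at 1.21 in Ob1774, and Zfp945 was at 1.3 in that line. Each line is 1 array (3T3-L1 the mean of 2). Chance alone marks about 1 in 20 such groups, and 4 of 81 genes are given here. None of the 4 genes was called across the 13 groups.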

How the results depend on the processing

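No difference between groups changed sign under the alternatives run for the called zinc finger genes and, where none was called, for the one with the smallest p; Zfp868, Zfp764, Zfp385a, Zfp57 and the genes of the other lists were not followed in this way. Zfp592 stayed called across groups under all 8 alternatives and without any single array. Zfp809, Zfp36l1 and Zfp423 did so except under median scaling (adjusted p of 0.174, 0.0704 and 0.663 in the F test). Among these alternatives, the replicate block left out the preadipocyte lines. Zfp653 lost its call under median scaling (adjusted p = 0.953), under background subtraction (0.26) and without replicate 2 of liver (0.181). Zfp575 and Zfp943 stayed called in 16 and 13 of 37 runs that left out 1 array. Counts of called members moved most with scaling and spread. Median scaling left 1 called across groups and 0 in tibialis muscle, both peritoneal macrophage comparisons, the macrophage lines and inguinal against 3T3-F442A adipocytes. Background subtraction left 1 in tibialis muscle, 0 and 1 in peritoneal macrophages against stroma-vascular cells and against the lines, and 1 in inguinal against 3T3-F442A adipocytes. With 4 times the offset, and with a local trend removed, 2 were called in liver, where the second called 154 of all spots. Removal of the local trend left 0 in the macrophage lines, where it called 90 of all spots. Only bright spots gave 1 in tibialis muscle, 0 in peritoneal macrophages against stroma-vascular cells and 1 for the difference of the 2 culture changes. Zfp180 and Zfp575 were not among the bright spots, so their calls could not be tested in this fit. A fit of only the compared groups gave 1 in stroma-vascular cells, 4 in inguinal against 3T3-F442A adipocytes, and 0 in tibialis muscle, both peritoneal macrophage comparisons and the macrophage lines. The cause was not tested.

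With the replicate block, 2 members were called in stroma-vascular cells, where it called 231 of all spots. The replicate block called 0 members in both peritoneal macrophage comparisons and lost 1 and 3 calls there. Across groups, where this fit left out the preadipocyte lines, 7 were called, with Zfp575 and Zfp943 lost and Zfp207 and Zfp800 added. In tibialis muscle 3 were called, with Zfp868 added (adjusted p = 0.00219), and in inguinal against 3T3-F442A adipocytes 2, with Zfp809 lost (0.0508) and Zfp764 added (0.0268). In the peritoneal, tibialis and inguinal against 3T3-F442A comparisons the samples share only a number, by the rule used. For Raw 264 against C3H-10T1/2 alone, 0 members were called with and without the block, and ES cells with LIF against C3H-10T1/2 alone also gave 0 with either; these fits were chosen after seeing the data. So was a crossed block for liver and tibialis muscle, which called 0 members and 4 spots, against 6 with equal numbers paired.

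Leaving out 1 array gave 5 to 9 called members across groups and 0 to 3 in peritoneal macrophages against the lines. It gave 1 to 3 in inguinal against 3T3-F442A adipocytes, where these runs called 34 to 275 of all spots. It gave 0 to 1 in stroma-vascular cells, 3T3-F442A adipocytes and peritoneal macrophages against stroma-vascular cells. There the runs called 14 to 37, 6 to 32 and 17 to 22 of all spots. The counts also moved in tibialis muscle, C2C12 myotubes, liver, the macrophage lines and the difference of the 2 culture changes. Some of those runs left 1 array in a group, so their counts are not given.

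Over all spots, counts ranged widely over the alternatives other than left-out arrays: 20 to 231 around 36 in stroma-vascular cells, 2 to 11 around 9 in 3T3-F442A adipocytes, 2 to 20 around 13 in C2C12 myotubes, 4 to 184 around 53 in tibialis muscle, 2 to 154 around 108 in liver, 0 to 39 around 26 in peritoneal macrophages against stroma-vascular cells, 20 to 213 around 167 against the lines, 2 to 90 around 62 in the macrophage lines, 63 to 337 around 142 in inguinal against 3T3-F442A adipocytes, 4 to 26 around 13 in ES cells with LIF, 1 to 26 around 15 for the difference of the 2 changes and 158 to 851 around 629 across groups.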
